A study of Sus scrofa with 42 samples.

Results

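The protein-coding genes of the pig whose symbols begin with ZNF or ZSCAN and a number were followed in single cells of cleaving embryos. The expression table held 256 such genes, and 153 of them (149 ZNF and 4 ZSCAN genes) reached an FPKM of at least 1 in at least 3 of the 42 cells, FPKM being a fragment count scaled by exon length and library size. The other 103 genes stayed below that limit, and 50 of these never reached an FPKM of 1 (8 were at 0 in every cell). ZSCAN4 and ZSCAN10, known as early-embryo and pluripotency genes in other mammals, were among those below the limit, with highest values of 0.170 and 0.0356 in any cell. The values nearest to the limit were the third-highest FPKM of ZNF630 (1.03), ZNF385B (1.07) and ZNF182 (1.08) inside it, and of ZNF32 (0.965), ZNF165 (0.901) and ZNF660 (0.889) outside it.

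Some embryos had been fertilized in vitro (IVF), and the others were parthenotes (PA), in which an activated egg divides without sperm. Oocytes of slaughterhouse gilts were matured in vitro, and PA embryos received an electric pulse followed by 6-dimethylaminopurine and cytochalasin B. Whole 1-cell embryos were taken at 19 h, and single blastomeres of 2-, 4- and 8-cell embryos at 27 h, 48 h and 72 h. For each method there were 3 1-cell embryos, 6 blastomeres of 3 2-cell embryos, 9 blastomeres of 3 4-cell embryos and 3 blastomeres of 1 8-cell embryo, 20 embryos in all. The embryo was the replicate: its value is the mean FPKM of its blastomeres. Since an 8-cell group is 1 embryo, a comparison with the 8-cell stage takes its spread from the other groups, and 1 embryo cannot stand for its stage.

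Most of these genes encode proteins with C2H2 zinc fingers, short folds in which 2 cysteines and 2 histidines hold a zinc ion, and a row of fingers reads a stretch of DNA. Many also carry a KRAB domain, which recruits the corepressor TRIM28 and the histone methyltransferase SETDB1 to silence transposable elements and other targets, and a smaller set carries a SCAN domain, which lets the proteins pair. Early embryos live on RNA stored in the egg until that RNA is degraded and their own genome is switched on, which in the pig is placed around the 4-cell stage. A falling level can therefore show loss of stored RNA and a rising level new transcription, but these libraries measure only the RNA present.

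The fingers are written in the DNA as a repeat, and a few are printed to show what kind of gene the results turn on: 3 neighbouring fingers of ZNF664, the highest gene on average, and single fingers of ZNF449, ZSCAN26, ZNF345 and ZNF622, which are described below. They were read from the RefSeq annotation of Sscrofa11.1, 5′ to 3′ on the coding strand, and capitals mark the codons of the 2 cysteines and 2 histidines; in all but ZNF622 the 21 bases after the last histidine codon, the linker to the next finger, are included.
ZNF664 finger 6 of 9, chr14:29034382-29034465, minus strand: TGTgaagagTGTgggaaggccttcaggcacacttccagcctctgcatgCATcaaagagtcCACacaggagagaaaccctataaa
ZNF664 finger 7 of 9, chr14:29034298-29034381, minus strand: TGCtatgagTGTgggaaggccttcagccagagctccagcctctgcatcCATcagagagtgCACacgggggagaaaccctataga
ZNF664 finger 8 of 9, chr14:29034214-29034297, minus strand: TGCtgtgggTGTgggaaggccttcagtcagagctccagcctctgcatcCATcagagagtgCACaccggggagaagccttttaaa
ZNF449 finger 6 of 7, chrX:110946081-110946164, plus strand: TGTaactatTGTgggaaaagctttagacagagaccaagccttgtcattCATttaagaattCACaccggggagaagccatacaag
ZSCAN26 finger 6 of 8, chr7:22132054-22132137, plus strand: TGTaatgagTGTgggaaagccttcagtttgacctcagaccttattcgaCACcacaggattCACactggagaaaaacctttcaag
ZNF345 finger 8 of 12, chr6:46050432-46050515, minus strand: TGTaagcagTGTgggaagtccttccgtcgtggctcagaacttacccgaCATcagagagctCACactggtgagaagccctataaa
ZNF622 finger 2 of 3, chr16:5714105-5714173, minus strand: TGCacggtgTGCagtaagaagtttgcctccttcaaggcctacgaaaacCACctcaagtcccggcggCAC
Fingers 7 and 8 of ZNF664 shared 76 of 84 bases (90.5%), and fingers 6 and 7 shared 71 (84.5%). Between genes the printed fingers were less alike, from 61.9% between ZNF449 and ZNF345 to 70.2% between ZSCAN26 and ZNF345. The ZNF622 finger has 69 bases and no linker of this kind after it.

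RefSeq proteins were matched to 133 of the 153 genes (86.9%), 114 by symbol and position and 19 by position alone. Among the 133, 125 had at least 2 fingers, 6 had 1 and 2 had none that the search found (ZNF365 and ZNF703), with a median of 10 and a highest number of 35, in ZNF142. A KRAB-like motif was found in 67, whose median was 12 fingers, and not in 66, whose median was 7. A SCAN-like motif was found in 13, of which 6 also had the KRAB-like one. Chromosome 6 held 53 of the 153 genes (34.6%), against 9.53% of the protein-coding genes tested.

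Reads on genes ranged from 4760714 to 15998910 per cell, and reads on the 153 genes from 21195 to 170447. An FPKM close to 1 rested on a median of 151 reads (31 to 428), counting error only. The summed FPKM of 8 oocyte markers in the table (BTG4, BMP15, GDF9, ZP4 and others) was 1018 to 1822 in the 1- and 2-cell embryos and 76.4 (IVF) and 56.4 (PA) at the 8-cell stage. BTG4 held the largest part at the 1-cell stage, with means of 730 (IVF) and 538 (PA). The markers did not all fall alike. From the 1- to the 8-cell stage ZP4 went from 69.8 to 65.2 in IVF and from 178 to 0.13 in PA, and ZP2 from 6.36 to 0.379 and from 17.09 to 29.15. The summed FPKM of 6 cumulus markers was at most 19.3, of 2 sperm markers at most 2.26, and the blood marker PTPRC reached 1.76. Blastomere 4 of PA 4-cell embryo 1 nearly repeated blastomere 2 of PA 2-cell embryo 1 (r = 0.9985 across genes), and blastomere 1 of PA 4-cell embryo 2 nearly repeated blastomere 1 of PA 2-cell embryo 2 (r = 0.9988), whereas the next-highest pair of 861 had an r of 0.908. The labels give each of these cells the stage of its own embryo. The calls they change and several group values of the PA 4-cell embryos are also given without the 2 near repeats, the group values by a choice made after seeing the data.

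Fewer of these genes reached an FPKM of 1, the limit also used to choose them, at each later stage of IVF embryos. The same held for PA embryos with all blastomeres included. At an FPKM of at least 5 the IVF group means were 50.7, 47, 42.7 and 21 genes from the 1- to the 8-cell stage. In PA they were 37.7, 38, 28 and 22, with no fall from the 1- to the 2-cell stage. An FPKM of at least 1 was reached by 75, 102 and 102 of the 153 genes in the 3 IVF 1-cell embryos, and by 68, 75 and 73 in the PA 1-cell embryos. At the 2-cell stage the mean number was 84.7 ± 4.16 (SD, n = 3 embryos) after IVF and 63 ± 5.57 after PA, and at the 4-cell stage 64.3 ± 9.5 and 46.3 ± 12.7. The 8-cell embryos had 38 (IVF) and 33 (PA). Without the 2 near repeats the PA 4-cell embryos had 16, 34 and 32 (mean 27.3 ± 9.87), embryo 1 then being 1 blastomere, and the mean no longer lay above the PA 8-cell embryo. The share of the 153 genes detected was below that of the other coding genes tested in every group: 60.8% against 65.4% at the IVF 1-cell stage, 42% against 50.9% at the IVF 4-cell stage, and 24.8% against 37.9% in the IVF 8-cell embryo. In PA embryos the shares were 47.1% against 58.6%, 30.3% against 42.5% and 21.6% against 36.7% at the same stages, and 17.9% against 28.4% at the 4-cell stage without the near repeats.

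**Figure D1:**
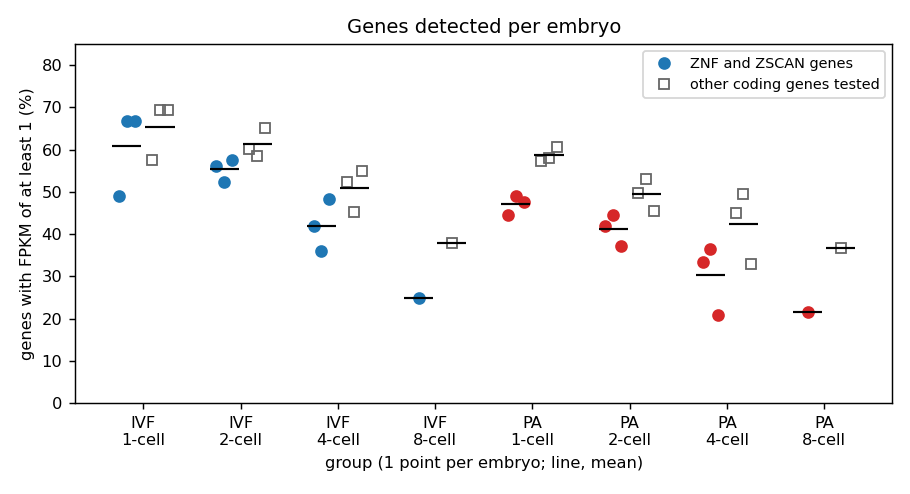
Share of genes with an FPKM of at least 1 in each embryo (y axis, percent), by method and stage (x axis); filled circles are the 153 ZNF and ZSCAN genes (blue IVF, red PA), open squares the other coding genes tested, and lines the group means. All blastomeres are included; the group means of both fall from the 1-cell to the 8-cell stage, and the circles end at 24.8% and 21.6% where the squares end at 37.9% and 36.7%.

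The summed level of the genes changed less than their number until the 8-cell stage. They made up 0.906% of the FPKM on nuclear genes in IVF 1-cell embryos and 0.892% in IVF 4-cell embryos, and 0.434% in the IVF 8-cell embryo. In PA embryos the share was 0.919%, 0.860% (0.807% without the near repeats) and 0.411% at these stages. Only 1 gene reached an FPKM of 1 in all 42 cells, the median gene did so in 9 cells, and 85 genes did so in 10 cells or fewer.

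A few genes carried much of the sum. The 10 highest, by the mean of the 8 group means, took 37.9% of it on average; they were ZNF664 (67.9 FPKM), ZNF648 (51.8), ZNF706 (38.3), ZNF367 (32.7), ZNF667 (24.4), ZNF207 (24.2), ZSCAN26 (23.2), ZNF532 (21.9), ZNF317 (19.6) and ZNF449 (17.4). By contrast 47 of the 153 genes had a mean under 1, and the median was 2.17. Among the 10, with all blastomeres included, ZNF367 and ZNF207 stood higher at the 8-cell stage than in every earlier group mean with both methods. ZNF207 encodes a spindle protein that loads the checkpoint factor BUB3 onto kinetochores. Its FPKM was 50.1 (IVF) and 38.0 (PA) at the 8-cell stage, against 13.5 and 11.3 at the 1-cell stage and 8.08 and 6.02 at the 2-cell stage. At the 4-cell stage it already stood at 32.35 and 34.46. Without the near repeats the PA 4-cell embryos were at 48.67, 21.35 and 57.38, so that embryos 1 and 3 lay above the PA 8-cell value. Neither gene passed the test in a comparison with the 8-cell stage: for ZNF207 the log2 change from the 1- to the 8-cell stage was 1.84 (adjusted p = 0.191) in IVF and 1.68 (adjusted p = 0.263) in PA.

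To find which genes changed between stages, limma was fitted to log2(FPKM + 1) of the embryos over all 8116 genes tested, and a gene was called at a Benjamini-Hochberg adjusted p under 0.05 and a fold of at least 2. All log2 changes below are on this scale, which understates the change of low genes. From the 1-cell to the 8-cell stage 18 of the 153 genes were called in IVF embryos (11.8%), where 14.3% of all genes tested were called. Of these 5 rose and 13 fell, 3.27% and 8.5% of the genes, beside 6.03% and 8.23% of all genes tested. In PA embryos 13 were called (8.5%) beside 13.8% of all genes, 4 up and 9 down (2.61% and 5.88%, beside 7.58% and 6.21%). The median log2 change of the 153 genes was -0.92 in IVF and -0.64 in PA, and that of all genes tested -0.77 and -0.58. The plot of fold changes shows both distributions. The split into rises and falls depended on the scaling. Median ratio scaling moved the median of all genes to -0.06 and -0.10 and gave 19 genes up and 0 down in IVF and 17 up and 1 down in PA, beside 20.1% and 22.7% of all genes tested called: all 9 genes called up stayed called, the 13 falls in IVF were lost, and of those in PA only ZNF449 was kept. Every lost gene still had a negative log2 change. When the nuclear genes were rescaled to the same total, 2 rose and 12 fell in IVF and 3 rose and 9 fell in PA, beside 12.5% of all genes tested with each method. Without the PA 4-cell blastomeres that nearly repeat 2-cell ones, the IVF calls of ZNF106 (adjusted p = 0.0535), ZNF644 (0.0629), ZNF664 (0.0521) and ZSCAN31 (0.0656) were lost, as was the PA call of ZNF287 (0.116); their log2 changes were the same, since no 4-cell embryo enters them.

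**Figure D2:**
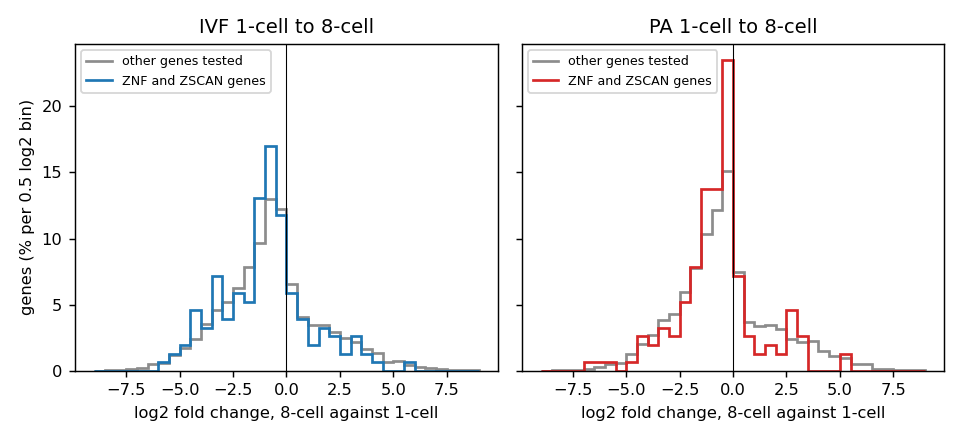
Log2 fold change of the embryo means from the 1-cell to the 8-cell stage (x axis) in IVF (left) and PA embryos (right); the y axis gives the percent of genes in each bin of 0.5. Coloured lines are the 153 ZNF and ZSCAN genes and grey lines the other genes tested; both peak just below 0, with medians of -0.92 (IVF) and -0.64 (PA) for the 153 genes.

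Among the genes that fell, ZNF648 had an FPKM of 64.8, 41.6 and 72.1 in the IVF 1-cell embryos and of 0.115 in the IVF 8-cell embryo, and of 78.7, 70.7 and 124 in the PA 1-cell embryos and 0.0613 in the PA 8-cell embryo. With all blastomeres included every earlier embryo was above both 8-cell embryos, the lowest at 15.0 (PA 4-cell embryo 1). Without the near repeats PA 4-cell embryo 1 was at 5.65 and embryo 2 at 0.256, close to the 8-cell values. The log2 change was -5.72 ± 0.85 (SE; adjusted p = 0.00017) in IVF and -6.40 ± 0.85 (adjusted p = 7.59e-05) in PA. ZNF667 went from 28.2, 52.0 and 67.8 to 0.291 in IVF and from 53.2, 24.9 and 19.7 to 0.0305 in PA, with log2 changes of -5.20 (adjusted p = 0.00602) and -4.90 (adjusted p = 0.00933).

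Of the 13 genes tested from a list of regulators of transcription and chromatin, ZNF451 and ZNF644 fell with both methods. ZNF451, a SUMO ligase, had an FPKM of 20.9, 43.9 and 45.3 at the IVF 1-cell stage and 15.8, 17.3 and 15.1 at the PA 1-cell stage, and 0.285 and 0.0209 at the 8-cell stage, log2 changes of -4.80 (adjusted p = 0.00487) and -4.06 (adjusted p = 0.0149). ZNF644, a partner of the histone H3 lysine 9 methyltransferases G9a and GLP, fell by 3.79 (adjusted p = 0.0344) and by 4.13 (adjusted p = 0.0232) on the log2 scale. ZNF599 and ZSCAN26 were also called down with both methods; ZNF599 fell by 4.52 (adjusted p = 0.0206) and by 4.14 (adjusted p = 0.0338). Stage by stage these levels were not alike: in IVF 4-cell embryos ZNF451 stood at 40.2, 10.2 and 37.0, within the range of the earlier embryos, whereas ZNF599 stood at 0.0304, 0.0746 and 11.9.

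Further genes were called down with 1 method. In IVF these were ZNF184 (-4.48), ZNF436 (-4.43), ZNF106 (-4.32), ZNF570 (-4.30) and ZNF140 (-3.31). ZNF106 encodes an RNA-binding protein with a role in splicing; its FPKM was 18.8, 26.8 and 20.3 in IVF 1-cell and 0.140 in the IVF 8-cell embryo. In PA it was ZNF287 (-3.90), at 27.2, 9.52 and 11.3 in the 1-cell embryos and 0.0304 in the 8-cell embryo. A gene called with 1 method is not shown to differ between methods by that.

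No gene was called up with both methods. In PA, ZNF226 was at 0.260, 0.0509 and 0.104 in the 1-cell embryos and at 39.4 in the 8-cell embryo, and ZNF345 at 0.00351, 1.81 and 1.07 and then 56.7. Their log2 changes were 5.16 ± 0.98 (adjusted p = 0.0017) and 5 ± 1.36 (adjusted p = 0.0196). Both lie among the finger genes of chromosome 6. The 3 blastomeres behind these values were unequal: ZNF345 was at 24.2, 107 and 39.2, but ZNF226 at 0, 0.0168 and 118, so that its value comes from 1 blastomere. ZNF566 (7.28, log2 change 2.93, adjusted p = 0.0381) and ZNF142 (8.83, log2 change 3.28, adjusted p = 0.000471) were the other genes called up in PA.

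In IVF the 5 genes called up were ZSCAN31, ZNF473, ZNF622, ZNF239 and ZNF263. ZNF473 encodes the U7 snRNP-associated protein ZFP100, which takes part in the 3′ processing of histone transcripts. It was at 0, 0.283 and 0.0496 in the 1-cell embryos, at 14.4, 0.0356 and 3.35 at the 4-cell stage, and at 11.7 in the 8-cell embryo (log2 change 3.52, adjusted p = 0.0209). In PA embryos it reached 2.30 in 1 of 10 embryos and was at most 0.0534 in the others. ZSCAN31 was at 23.1 in the IVF 8-cell embryo (0, 69.3 and 0.0264 in its blastomeres) and at 1.58 or less in every earlier IVF embryo, log2 change 4.14 ± 1.36 (adjusted p = 0.0477); of 9 other settings 2 kept this call, and no left-out IVF 1-cell embryo did (adjusted p from 0.0531 to 0.104). ZNF263 and ZNF239 stood at 2.69 and 7.19 in the IVF 8-cell embryo.

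**Figure D3:**
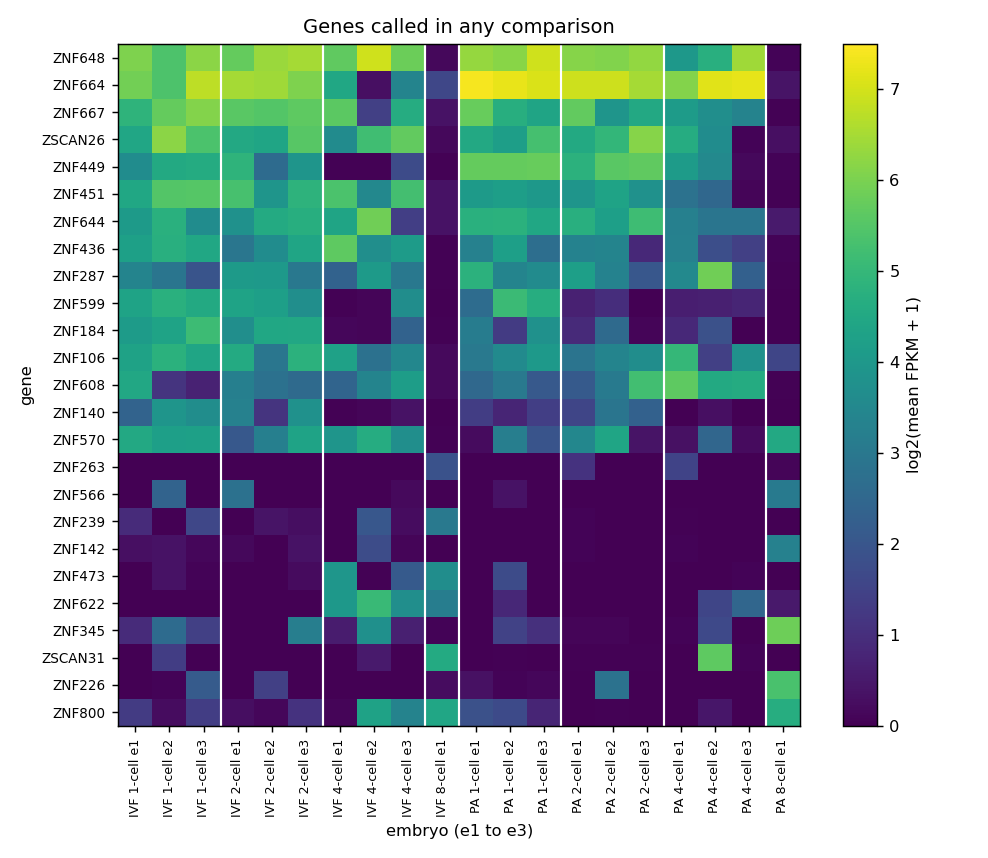
Level of the 25 ZNF and ZSCAN genes called in any comparison (rows) in each of the 20 embryos (columns, e1 to e3 within a group), as log2(mean FPKM + 1) on the colour scale; white lines part the groups. The upper rows are bright at the 1-cell stage, some already dark in 4-cell embryos (ZNF449, ZNF599), and mostly dark at the 8-cell stage (ZNF648 from 41.6 to 124 FPKM at the 1-cell stage and 0.115 or less at the 8-cell stage), and the lower rows are lit in single groups or embryos.

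From the 1-cell to the 2-cell stage 0 of the 153 genes were called in IVF (0% of all genes tested) and 0 in PA (0.0986% of all genes tested). At an unadjusted p under 0.05, 3 were higher and 6 lower at the IVF 2-cell stage, and 0 higher and 5 lower in PA. These were 5.88% (IVF) and 3.27% (PA) of the 153 genes, beside 2.66% and 4.855% of all genes tested. ZNF599 had the smallest p in PA, with an FPKM of 5.26, 33.6 and 24.6 in the 1-cell and 0.607, 0.993 and 0.0144 in the 2-cell embryos; these do not overlap, and the log2 change of -3.58 had an adjusted p of 0.276.

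From the 2-cell to the 4-cell stage of IVF embryos 2 genes were called (1.31%), beside 1.11% of all genes tested. ZNF622, which encodes an assembly factor of the large ribosomal subunit, rose. It was at 0.00856, 0.00645 and 0.0158 in the 2-cell embryos and at 15.1, 32.9 and 12.2 in the 4-cell embryos, and the groups do not overlap. The log2 change was 4.25 ± 0.66 (adjusted p = 0.00199), and the call was lost in 1 of 9 other settings, when only the 2 groups were fitted. In PA 4-cell embryos ZNF622 was at 0.0194, 1.96 and 4.59 (log2 change from the 2-cell stage 1.36, adjusted p = 0.472). The difference between the methods in this step was 2.90 with an adjusted p of 0.893, and in the 4-cell embryos 2.91 with an adjusted p of 0.0518.

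The gene that fell in this step was ZNF664, a finger gene with no KRAB-like motif and 9 fingers in 261 residues. Its FPKM was 88.6, 85.5 and 65.4 in the IVF 2-cell embryos and 21.1, 0.232 and 9.53 in the IVF 4-cell embryos. The groups do not overlap. The log2 change was -3.60 ± 0.76 (adjusted p = 0.0273), and over the other settings and left-out embryos the adjusted p ran from 0.000958 to 0.369. The call was lost without IVF 2-cell embryo 1 (adjusted p = 0.114), 2 (0.0827) or 3 (0.08) and without IVF 4-cell embryo 2 (0.0506), and it was lost without the PA 4-cell near repeats (0.0865), which share the estimate of spread. In PA embryos with all blastomeres included ZNF664 was at 166, 152 and 134 at the 1-cell, 122, 121 and 89.5 at the 2-cell and 68.5, 143 and 149 at the 4-cell stage. Without the near repeats PA 4-cell embryo 1, then a single blastomere, was at 5.77 and embryo 2 at 123, so that the level of embryo 1 rests on the near repeat. By the 8-cell stage it was at 2.05 in IVF and at 0.308 in PA.

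Between the methods at the 4-cell stage ZNF664 was the 1 gene of the 153 called (0.654%, beside 0.554% of all genes tested), 4.12 lower in IVF on the log2 scale (SE 0.76, adjusted p = 0.0327). Without the 2 PA blastomeres that nearly repeat 2-cell ones, the difference was -2.93 with an adjusted p of 0.115. Without PA 4-cell embryo 2 or 3 the adjusted p was 0.0648 and 0.0566. Among the 9 PA blastomeres, 3 were low (5.77, 22.3 and 9.07) and 6 were between 131 and 245, the near repeats at 131 and 203. The 9 IVF blastomeres ranged from 0.112 to 27.8, and 4 of them, both of embryo 2 and 2 of embryo 3, were under 1. CCDC92, which overlaps ZNF664 on the opposite strand, was at 0.0258 or less in every group mean.

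Without these 2 PA blastomeres 6 of the 153 genes were called between the methods at the 4-cell stage, beside 4.07% of all genes tested, all of them higher in IVF: ZSCAN26 (log2 difference 4.65), ZNF570 (4.00), ZNF451 (3.98), ZNF354A (3.62), ZNF436 (2.99) and ZNF622 (2.82). ZSCAN26 was at 11.2, 35.4 and 51.0 in the IVF embryos and at 0.222, 0.148 and 0.0499 in the PA embryos once those blastomeres were left out; with them PA embryos 1 and 2 were at 24.1 and 11.4. At the 1-cell and 2-cell stages 0 genes were called between the methods (0.0493% and 0% of all genes tested). At an unadjusted p under 0.05, 10 were higher and 1 lower in IVF at the 1-cell stage, 12 and 2 at the 2-cell stage, and 19 and 3 at the 4-cell stage. These were 7.19%, 9.15% and 14.4% of the 153 genes, beside 4.09%, 5.43% and 14.0% of all genes tested. The median log2 difference of the 153 genes was 0.36, 0.22 and 0.31 at these stages, beside 0.24, 0.25 and 0.23 for all genes tested.

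From the 2-cell to the 4-cell stage of PA embryos 0 genes were called (0.394% of all genes tested). At an unadjusted p under 0.05, 2 were higher and 9 lower, 7.19% of the 153 genes, beside 10.8% of all genes tested. Without the 2 near repeats 6 were called, beside 7.41% of all genes tested. ZNF449 and ZSCAN26 fell by 5.17 (adjusted p = 0.000299) and by 5.02 (adjusted p = 0.000374) on the log2 scale, ZNF567 (-4.19), ZNF703 (-3.59) and ZNF451 (-3.30) fell as well, and ZNF207 rose (2.59, adjusted p = 0.0220). ZNF449 shows the pattern most plainly. It was between 20.9 and 53.3 in the 6 PA 2-cell blastomeres, at 32.5 and 41.5 in the near repeats among the 4-cell ones, and between 0.0699 and 0.176 in the other 7. ZSCAN26 was at 47.9 and 45.2 in the near repeats and between 0.0181 and 0.258 in the other 7. In all, 7 of the 153 genes were at 10 or more in both near repeats and above all 7 others, and 4 of these (ZNF449, ZSCAN26, ZNF7 and ZNF703) were under 1 in all 7. The same count was not made for the other genes tested, so it does not set the ZNF and ZSCAN genes apart.

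**Figure D4:**
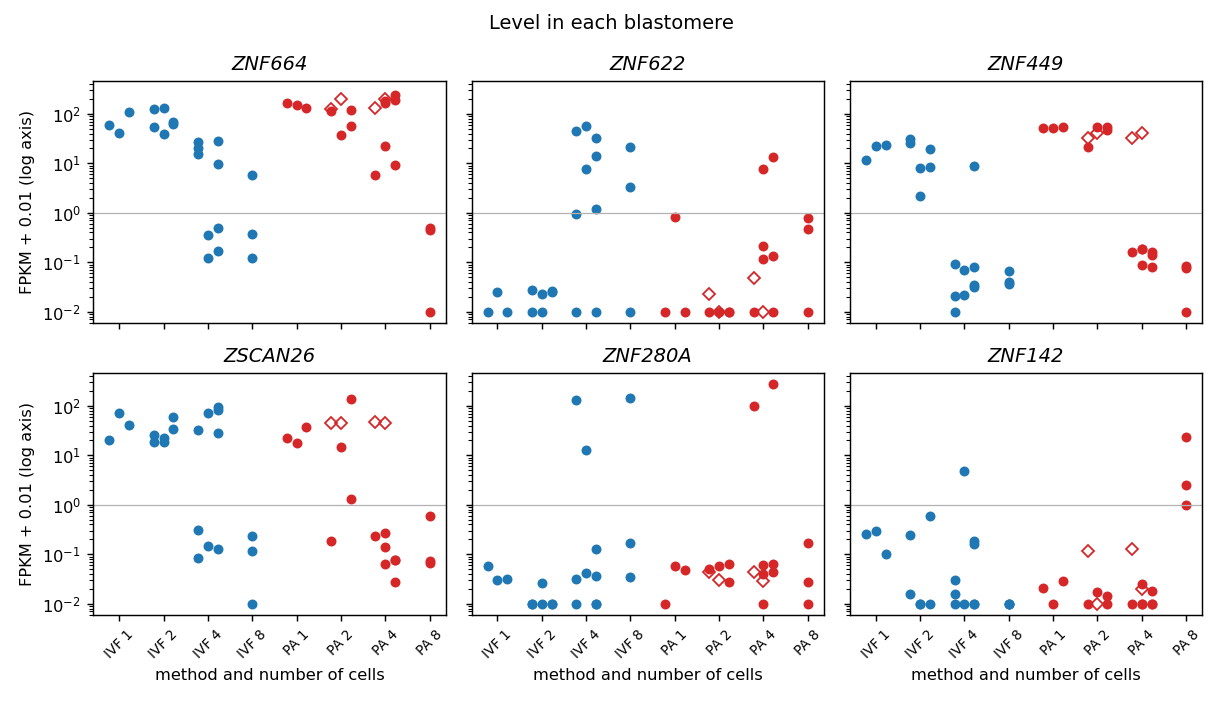
FPKM + 0.01 of 6 genes in each of the 42 cells (y axis, log scale), by method and number of cells (x axis; blue IVF, red PA; cells of 1 embryo share a position). Open diamonds are the PA blastomeres that nearly repeat each other across the 2- and 4-cell stages, and the grey line marks an FPKM of 1. ZNF449 and ZSCAN26 are high at the PA 4-cell stage only in the diamonds, ZNF664 is lower in IVF 4-cell than in most PA 4-cell blastomeres, and ZNF280A is near 0 in all but 5 cells.

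ZNF449 also fell with IVF. It stood at 28.6, 5.19 and 14.1 in the 2-cell and at 0.0309, 0.0357 and 2.28 in the 4-cell embryos, groups that do not overlap, with a log2 change of -3.21 and an adjusted p of 0.0698. From the 1-cell to the 8-cell stage it went from 11.4, 22.6 and 23.7 to 0.0376 in IVF (-4.22, adjusted p = 0.0290) and from 51.6, 52.3 and 53.5 to 0.0475 in PA (-5.67 ± 1.25, adjusted p = 0.00515). The PA call is 1 of 2, with that of ZNF142 over the same span, that held in all 9 other settings and with each of the 3 PA 1-cell embryos left out. The IVF call was lost without IVF 1-cell embryo 2 (adjusted p = 0.0681) or 3 (adjusted p = 0.0692). The study lists ZNF449 as lower in IVF than in PA at the 1-, 2- and 4-cell stages, by another test. Here the IVF and PA means were 19.25 and 52.5, 16.0 and 41.5, and 0.781 and 8.97, and ZNF449 was not called between the methods. Without the near repeats the PA 4-cell embryos were at 0.151, 0.143 and 0.118.

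From the 4-cell to the 8-cell stage 6 genes were called in IVF (3.92%, beside 6.97% of all genes tested), 2 up and 4 down (beside 3.72% and 3.25%). ZNF239 rose by 2.26 and ZNF263 by 1.87, and ZNF648 (-5.99), ZSCAN26 (-4.69), ZNF436 (-4.43) and ZNF451 (-4.34) fell. In PA 8 genes were called (5.23%, beside 9.99% of all genes tested), 5 up and 3 down (beside 6.81% and 3.18%). With median ratio scaling the splits were 11 up and 2 down in IVF and 13 up and 5 down in PA, beside 14.2% and 18.9% of all genes tested called. With nuclear rescaling they were 1 up and 4 down and 4 up and 4 down, beside 6.32% and 8.99%. ZNF226 (5.33), ZNF345 (5.27), ZNF800 (4.52), ZNF142 (3.27) and ZNF566 (3.04) rose, and ZNF664 (-6.45), ZNF648 (-4.97) and ZNF608 (-4.89) fell. Without the near repeats the PA count was 10, beside 9.72% of all genes tested, and ZNF648 was no longer called (adjusted p = 0.224).

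ZNF800 had a level at the 8-cell stage with both methods, 20.7 in IVF and 24.6 in PA. In IVF 4-cell embryos it was at 0.0831, 19 and 9.25, and in PA 4-cell embryos at 0.00719, 0.375 and 0.0129. These ranges overlap, and ZNF800 was not called between the methods at that stage. ZNF608 stood at 49.1, 22.3 and 23.3 in the PA 4-cell embryos and at 0.0324 in the PA 8-cell embryo, which lies below all 3. Without the near repeats embryos 1 and 2 were at 92.1 and 26.1.

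The change from the 4-cell to the 8-cell stage differed between the methods for 2 of the 153 genes (1.31%, beside 2.86% of all genes tested). The earlier steps gave 0 of the 153 (0% and 0% of all genes tested). ZNF142 was at 0.00852, 2.36 and 0.0808 in the IVF 4-cell embryos and at 0 in the IVF 8-cell embryo, and at 0.0585, 0.00601 and 0.00269 in the PA 4-cell embryos and at 8.83 in the PA 8-cell embryo. The 3 PA 8-cell blastomeres were at 0.961, 23.0 and 2.54, whereas no earlier PA cell was above 0.117. The difference of the log2 changes, IVF minus PA, was -3.89 ± 0.76 (adjusted p = 0.00997). The call was lost with a pseudocount of 0.1 (adjusted p = 0.0539) and when no group but those compared was fitted (adjusted p = 0.319), and was kept in the other 7 settings and with each 4-cell embryo left out. ZNF142 shares its locus with BCS1L on the opposite strand, whose FPKM was 9.53 in the PA 8-cell embryo, 6.41 on average in the IVF 4-cell embryos and at most 0.117 in the other group means; if strand was not used, reads of the shared bases cannot be told apart. ZNF570, with a KRAB-like motif, was at 14, 24.2 and 12 and then 0.0306 in IVF, and at 0.264, 4.53 and 0.161 and then 22.1 in PA, where 66.1 in 1 of the 3 blastomeres made the value. The difference was -7.57 ± 1.99 (adjusted p = 0.0470), and leaving out IVF 4-cell embryo 2 or 3 or PA 4-cell embryo 1 or 3 gave an adjusted p between 0.0548 and 0.0654. Of the other settings 4 lost this call as well, with adjusted p-values of 0.0746 (nuclear rescaling), 0.557 (blastomeres as the unit), 0.058 (without the PA 2-cell counterparts of the near repeats) and 0.182 (no group but those compared).

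Many calls against a single 8-cell embryo were close to the threshold. Of the 50 pairs of gene and comparison called, 2 held in every other setting and in every left-out fit, and none changed its direction. Only embryos of the compared groups before the 8-cell stage were left out, since an 8-cell group is 1 embryo. In the comparison of the IVF 1- and 8-cell stages the calls of ZNF622, ZNF644 and ZNF570 were each lost when any 1-cell embryo was left out (adjusted p from 0.0528 to 0.0634, from 0.0514 to 0.0897 and from 0.0835 to 0.0863). Those of ZNF140 (0.106, 0.0949) and ZNF239 (0.0541, 0.113) were lost without either of 2 embryos (2 or 3 for ZNF140, 1 or 2 for ZNF239), those of ZNF184 (0.0603) and ZNF473 (0.0508) without embryo 3, and that of ZNF599 (0.0518) without embryo 2. In PA over the same span ZNF287, ZNF566 and ZSCAN26 were lost without any 1 of the 3 1-cell embryos (0.057 to 0.104, 0.0592 to 0.0773 and 0.0513 to 0.0828), ZNF599 without embryo 2 (0.0916) or 3 (0.0805), ZNF345 without embryo 1 (0.0562) and ZNF644 without embryo 2 (0.0516). Between the 4- and 8-cell stages ZNF239 was lost without IVF 4-cell embryo 1 (0.102) or 3 (0.0934), ZSCAN26 without embryo 2 (0.054) or 3 (0.0801), ZNF608 without PA 4-cell embryo 1 (0.0517), and ZNF566 without any 1 PA 4-cell embryo (0.0602 to 0.0654). ZNF648, ZNF667, ZNF451, ZNF664 and ZNF226 kept their 1- to 8-cell calls with each 1-cell embryo left out.

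The 8-cell embryos of the methods were compared as values, with no test. Of the 153 genes 97 were under 1 in both and 15 at 1 or above in both. On the log2(FPKM + 1) scale 26 (17%) were at least 2-fold higher in the IVF and 22 (14.4%) in the PA embryo, beside 19.4% and 19.3% of all genes tested. The blastomeres of the embryos did not overlap for 6 of these 48 genes, 3.92% of the 153, beside 6% of all genes tested.

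Sister blastomeres of 1 embryo differed widely. A gene was counted as split where 1 sister was at 10 or above and another under 0.1. Of the 153 genes that reached 10 in any sister, 12.9% were split in IVF 2-cell embryos (4.65 to 24.4, n = 3), 71.8% in IVF 4-cell embryos (65.9 to 77.6) and 78.6% in the IVF 8-cell embryo. In PA embryos the shares were 32.3% (19.4 to 48.4), 62.4% (46.9 to 75.0) and 63.6%. The shares of the other coding genes were 6.36%, 52.2% and 56.2% in IVF and 17.8%, 53.9% and 61.4% in PA, and the share of the ZNF and ZSCAN genes was the higher one in 14 of 14 embryos. Of these, PA 4-cell embryo 1 (46.9%) has a share only through its near repeat. Without the near repeats PA 4-cell embryos 2 and 3 were at 65.4% and 65.2%, beside 57.6% and 61.1% of the other coding genes, and the ZNF and ZSCAN share was the higher one in 13 of 13 embryos. Few genes stood behind each share, and some differences were slight. The split genes were 2 of 43 in IVF 2-cell embryo 3 (4.65% beside 4.26% of the other coding genes). They were 14 of 22 in the PA 8-cell embryo (63.6% beside 61.4%) and 28 of 39 in IVF 4-cell embryo 2 (71.8% beside 39.05%). The high genes compared had a median top level of 26.8 FPKM in the ZNF and ZSCAN set and of 30.4 in the other genes, and the numbers of sisters differed between embryos (2 to 4). The part of level and of amplification from single cells in these shares was not tested.

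The highest of the 153 genes changed from cell to cell as well. ZNF664 was the highest in 14 of the 42 cells and ZNF648 in 5, and no other gene led in more than 3. ZNF280A, chosen after its values were seen, was at 131 in 1 blastomere of IVF 4-cell embryo 1 and 12.6 in 1 of embryo 2, at 141 in 1 of the IVF 8-cell embryo, and at 99.2 and 277 in 1 blastomere each of PA 4-cell embryos 1 and 3. In the other 37 cells it was at 0.159 or less. ZSCAN31 likewise was at 195 in 1 of the 4 blastomeres of PA 4-cell embryo 2, with its sisters at 0.0155 or less.

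Genes with a KRAB-like motif and those without had medians that overlapped between embryos in 5 of the 6 groups with 3 embryos. In PA 2-cell embryos they did not overlap: the median FPKM was 0.668 (0.404 to 0.993) with the motif and 0.198 (0.0479 to 0.287) without it, given with no test. The median FPKM of the 67 was 1.92 and that of the 66 was 1.47 in IVF 1-cell embryos, with ranges over the 3 embryos of 1.18 to 2.52 and 0.731 to 1.96 that overlap. At the IVF 4-cell stage the medians were 0.262 (0.0271 to 0.495) and 0.805 (0.243 to 1.86), ranges that overlap too, and at the PA 4-cell stage 0.0949 and 0.254 (0.00928 and 0.0206 without the near repeats). From the 1-cell to the 8-cell stage the median log2 change was -1.04 with and -0.64 without the motif in IVF, and -0.68 and -0.35 in PA. Of the 67, 2 rose and 5 fell in IVF and 2 rose and 2 fell in PA. Of the 66, 3 rose and 7 fell in IVF and 1 rose and 6 fell in PA. Among all genes tested 6.03% rose and 8.23% fell in IVF, and 7.58% rose and 6.21% fell in PA. The difference between the 67 and the 66 in these counts was not tested. Of the table's genes with a RefSeq match, 67 of 99 with the motif (67.7%) and 66 of 128 without it (51.6%) had passed the limit of detection.

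The 53 genes of chromosome 6 had a median log2 change from the 1-cell to the 8-cell stage of -0.91 in IVF and -0.24 in PA, and the other 100 genes -0.93 and -0.80. On chromosome 6, 1 gene rose and 4 fell in IVF, and 3 (ZNF226, ZNF345 and ZNF566) rose and 2 fell in PA. Of the 13 genes with a SCAN-like motif 2 rose and 2 fell in IVF and 3 fell in PA. Beside these counts, 6.03% of all genes tested rose and 8.23% fell in IVF, and 7.58% and 6.21% in PA. The 4 ZSCAN genes lie within chromosome 7, at 21950389 to 22208745, and had separate courses. ZSCAN26 was called down with both methods (-5.19, adjusted p = 0.0130, and -4.37, adjusted p = 0.0338), and ZSCAN31 up in IVF, as above. ZSCAN12 was at 0.172, 0.311 and 3.65 in the PA 1-cell embryos and at 19.2 in the PA 8-cell embryo (log2 change 3.39, adjusted p = 0.165), and ZSCAN16 was at 4.52 or less in every embryo.

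A list of regulators of transcription and chromatin held 18 genes, of which 17 were in the table and 13 passed the limit; ZNF423, ZNF609, ZNF687 and ZNF827 did not. Between the 1-cell and the 8-cell stage 0 of the 13 rose and 2 (ZNF451 and ZNF644) fell with each method, beside 14.3% (IVF) and 13.8% (PA) of all genes tested called. The median log2 change of the 13 was -0.64 in IVF and -0.76 in PA. ZNF445, which helps to keep imprinted DNA methylation in mammals, was at 8.41, 11.7 and 9.10 in IVF 1-cell and 9.13, 6.24 and 7.78 in PA 1-cell embryos. At the 8-cell stage it was at 0.0132 and 0.0246, with log2 changes of -3.39 (adjusted p = 0.0597) and -3.08 (adjusted p = 0.0918). ZNF462, which takes part in embryonic development and chromatin structure, stood at 4.10, 9.79 and 9.46 in IVF 1-cell embryos and at 0.0288 in the IVF 8-cell embryo (-3.02, adjusted p = 0.0961). ZNF281, a GC-box-binding factor linked to pluripotency, was at 13.8, 0.0651 and 15.6 in the IVF 4-cell embryos and at most 0.0493 in the PA 4-cell embryos (adjusted p = 0.248).

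ZNF703, a transcriptional corepressor, was at 3.28 in the PA and at 41 in the IVF 8-cell embryo, but 121 in 1 IVF blastomere made most of the latter. ZNF148, a GC-rich-sequence-binding factor, was at 11.2 in 1 IVF 4-cell embryo and 7.52 in the PA 8-cell embryo. ZNF143, ZNF131, ZNF217, ZNF518B and ZNF711 were low, with an embryo value of 6.28 at most (ZNF131, IVF 4-cell embryo 2). ZNF518A, a G9a-associated protein, ranged from 1.39 to 8.97 in the IVF embryos before the 8-cell stage and was at 0.120 and 0.00122 in the 8-cell embryos.

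A list of genes for RNA, ribosome or mitosis functions held 11, with 8 in the table and 7 past the limit. Between the 1-cell and the 8-cell stage 1 (ZNF622) rose and 1 (ZNF106) fell in IVF, and 0 were called in PA, beside 14.3% and 13.8% of all genes tested. ZNF706, a small protein of 76 residues with 1 finger, was at 66.5, 37.3 and 68.8 in IVF 1-cell embryos and 4.43 in the IVF 8-cell embryo (-3.38, adjusted p = 0.0582), and at 16.0 in the PA 8-cell embryo. ZNF598, a ubiquitin ligase that senses collided ribosomes, reached 25.1 in 1 IVF 4-cell embryo and was at 2.91 or less in the other 19. ZNF326, part of a complex that links splicing to elongation, was at 0.00892 in the PA and 7.68 in the IVF 8-cell embryo, and ZNF638, an RNA-binding protein, at 29.1 in the PA and 4.23 in the IVF 8-cell embryo.

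The corepressors that KRAB zinc fingers work with were taken from a list of 23 genes, 21 of which were tested. Over the same span 3 fell in IVF (PPHLN1, MORC3 and GATAD2B) and 3 in PA (RBBP7 and MORC3 among them), and 0 rose. This was 14.3% of the list with each method, beside 14.3% and 13.8% of all genes tested. The median log2 change was -1 and -0.74. CBX1, a heterochromatin protein 1 gene, rose by 5.45 (adjusted p = 0.00684) from the 4-cell to the 8-cell stage of IVF, from a mean of 0.183 to 49.9. TRIM28 itself, the cofactor that KRAB domains bind, was low at the 1- and 2-cell stages, with group means from 0.0772 to 0.546. It stood at 6.85 at the IVF 4-cell and 1.32 at the PA 4-cell stage. After IVF its 8-cell value was 0.541, again within the range of the 1- and 2-cell means, whereas after PA it was 5.45. TRIM28 was not called in any comparison. SETDB1 stood between 10.9 and 86.8 in all 8 group means.

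The related finger families were small. Over that span 1 of 5 ZKSCAN genes fell with each method, 1 and 2 of 14 ZFP genes rose, and 0 of 15 ZBTB genes were called. Of 9 KLF genes 2 rose and 1 fell in IVF, with a median log2 change of 3.36, and 1 rose in PA, with a median of 0.66. Beside these counts, 14.3% (IVF) and 13.8% (PA) of all genes tested were called. The ZKSCAN, ZFP and ZBTB medians were -0.78, -0.46 and -0.98 in IVF and -0.86, -0.22 and -0.51 in PA.

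Of the 153 genes 49 overlapped another gene of the table and 41 did so on the opposite strand, and a strand setting of the counting is not given in the sources used here. Of the genes named above, those with an opposite-strand partner were ZNF142, ZNF207, ZNF317, ZNF280A, ZNF445, ZNF449, ZNF473, ZNF598, ZNF599, ZNF664, ZNF7 and ZSCAN26. CT55, opposite ZNF449, was at 8.83 (IVF) and 13.1 (PA) in the 8-cell embryos and at most 0.370 in the earlier group means, a course unlike that of ZNF449. Reads from finger genes with near-identical stretches, as in the chromosome 6 clusters, can be lost or shared in mapping, so that levels of such genes are less certain than those of single-copy ones.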

How the data were processed

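Single cells of 20 pig embryos in 8 groups were sequenced by the submitters after amplification; as the labels and the study's methods give it, reads were aligned with HISAT2 to Sscrofa11.1 and counted per gene, and the authors deposited FPKM values. The labels name another RNA extraction than the methods, and stranded counting is not given in the sources used here. Low values were whole multiples of what 1 read is worth for 14683 of 14692 genes (tolerance 0.002), which gave reads per cell; intervals from these cover counting error only. The value of an embryo was the mean of its blastomeres. Genes with an FPKM of at least 1 in at least 3 of 42 cells (8116) entered 1 limma-trend fit (limma 3.58.1, R 4.3.3) of log2(FPKM + 1) over all 8 groups, with Benjamini-Hochberg adjustment over all genes; an FPKM is no count, so the count model of the authors was not used. A call needs an adjusted p under 0.05 and a 2-fold change. Samples came from the labels, which do not say that the embryos came from separate batches of oocytes, so p-values measure the spread between embryos only. The fit was tested on simulated data with known changes. Of 50 genes changed by 2 on the log2 scale, it called 8 for the IVF 2- to 4-cell step. It called 10 of 50 between the methods at the 4-cell stage and 0 of 50 for the IVF 4- to 8-cell step. Of 50 genes changed by 4 it called 37, 32 and 12. A gene that was not called can therefore still have changed.

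The members and lists were chosen with earlier results of these data known. The values of 1 gene of the corepressor list are not reported here. Named genes are those called without overlap between embryos (up to 10 in each direction by fold), the 10 highest, the ZSCAN genes, ZNF449 and the members of 2 role lists; ZNF7, ZNF140, ZNF280A, ZNF354A, ZNF365 and ZNF567 were named after their values were seen. Fingers (2 cysteines and 2 histidines at their spacing) and KRAB- and SCAN-like motifs were searched in translated RefSeq coding sequences, and the sequence of proteins is not printed. Pairing by embryo number was checked: deviations of same-numbered PA 2- and 4-cell embryos correlated at 0.355, 0.282 and 0.1, and at -0.0131, 0.00865 and -0.00561 without the near-repeat blastomeres, and 4 of 21 pairs in all comparisons were above 0.1, so the numbers were not taken to pair embryos.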

Additional observations from a re-analysis of the deposited data

Results flagged for a closer look

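For 2 genes the change from the 4-cell to the 8-cell stage differed between IVF and PA embryos by the test of the interaction (limma, adjusted over all genes). For ZNF142 the log2 change, IVF minus PA, was -3.89 (adjusted p = 0.00997), and for ZNF570 it was -7.57 (adjusted p = 0.0470). Each value rests on 1 embryo per method at the 8-cell stage. For ZNF570, 1 of 3 PA 8-cell blastomeres held nearly all of the RNA (66.1, beside 0.0132 and 0.146), and for ZNF142 the opposite-strand gene BCS1L was at 9.53 in the same embryo. Without the 2 near-repeat PA blastomeres the values were -3.92 and -8.49, both still called. The ZNF142 call was lost in 2 of 9 other settings (adjusted p up to 0.319) and the ZNF570 call in 4 of 9 (adjusted p up to 0.557). Groups of 3 embryos were too small for a test of single outlying samples.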

How the results depend on the processing

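The counts in this paragraph are of ZNF and ZSCAN genes called, each with the share of all genes tested that was called, and none of the named log2 changes reversed. With blastomeres as the unit and an estimated correlation within embryos, 2 genes (0.209%) were called from the IVF 1- to 2-cell stage, 10 (7.53%) from the 2- to 4-cell, 3 (5.54%) from the 4- to 8-cell and 34 (18.9%) from the 1- to 8-cell stage, 1 each (0.69% and 2.05%) in the PA 1- to 2-cell and 2- to 4-cell steps, and 1 (0.209%) and 2 (0.419%) between the methods at the 2- and 4-cell stages. When each fit held no group but those compared, the IVF counts were 0 (2- to 4-cell; 0%), 0 (4- to 8-cell; 0%) and 29 (1- to 8-cell; 23%), that for the PA 4- to 8-cell step 2 (1.2%), and that between the methods at the 4-cell stage 0 (0%). Median ratio scaling gave 1 (0.715%), 13 (14.2%), 4 (6.2%) and 18 (18.9%) for the IVF 2- to 4-cell, IVF 4- to 8-cell, PA 2- to 4-cell and PA 4- to 8-cell steps, 4 (4.58%) between the methods at the 4-cell stage and 21 (13.5%) for the method difference in the 4- to 8-cell step. No filter gave 1 (0.504%) in the IVF 2- to 4-cell step. A pseudocount of 0.1 gave 2 (0.665%) between the methods at the 4-cell stage and 1 (1.8%) for the method difference in the 4- to 8-cell step, and nuclear rescaling 1 (1.76%) for the latter. Without the near-repeat PA 4-cell blastomeres 6 (7.41%) were called in the PA 2- to 4-cell step and 6 (4.07%) between the methods at the 4-cell stage, and without their PA 2-cell counterparts 1 (2.38%) for the method difference in the 4- to 8-cell step. The cause was not tested.

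Each embryo before the 8-cell stage was left out in turn. The counts then ran from 1 to 9 (IVF 2- to 4-cell), 6 to 11 (IVF 4- to 8-cell), 11 to 16 (IVF 1- to 8-cell), 0 to 1 (PA 1- to 2-cell), 0 to 1 (PA 2- to 4-cell), 0 to 10 (between the methods at the 4-cell stage), 0 to 4 and 2 to 7 (method difference in the 2- to 4-cell and 4- to 8-cell steps). The highest counts came without IVF 4-cell embryo 1, with 9, 11, 10, 4 and 7 in the comparisons that hold it. The share of all genes called is not given for these left-out fits, so a higher count is not a result about the ZNF and ZSCAN genes. The replicate block on the embryo number gave 21 (15.2%) and 12 (14.5%) calls from the 1- to the 8-cell stage (18 and 13 without it), 5 (6.72%) and 10 (10.2%) from the 4- to the 8-cell stage (6 and 8), and no count moved by over 1.5 times; it kept 41 of the 50 pairs of gene and comparison called. Of these 50, 26 were kept with median ratio scaling, 34 with blastomeres, and 40 to 42 in each of the other settings, except that 24 were lost in fits limited to the groups compared.

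An FPKM of 1 stood for a median of 151 reads, and each 8-cell group was 1 embryo, so that its own spread is not known.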
